A study of Mus musculus with 13 samples.

Results

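The promoters of the cytosolic ribosomal protein genes were followed through ATAC-seq peak lists of 13 mouse oligodendrocyte progenitor cell (OPC) cultures, as a set of genes that every growing cell uses. The set was defined by gene name from the GENCODE M21 annotation, with earlier results of these data known. It held 80 of 21951 protein-coding genes, 49 for the large (60S) subunit and 31 for the small (40S) subunit. A peak was assigned to a gene when it overlapped the promoter, the window from 2 kb before to 1 kb after any annotated transcription start. For each promoter the strongest peak gave a fold (enrichment over the background around the peak, within the same library), a width, and a percentile, which is the share of peaks in that library's own list with a fold no higher. ATAC-seq finds open chromatin as sites where the transposase Tn5 can insert sequencing adapters.

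The OPCs came from pups aged 5 to 7 days. Tissue of littermates with the same genotype was combined within a region, either brainstem or dorsal telencephalon (which took in hippocampus, cortex and corpus callosum), so no library is a single animal. Microglia and endothelial cells were depleted on a lectin-coated dish, and OPCs were then captured on an antibody to the receptor PDGFRa. All cultures were kept in the same proliferation medium with PDGF, neurotrophin-3, CNTF and forskolin, and no differentiated sample was used here. K27M cultures carried the H3.3 K27M mutation knocked into the endogenous H3-3a gene behind a stop cassette that Cre removes. The Cre line is written AMGFAP-Cre in the sample descriptions and hGFAP-Cre in the study's methods, where it is active in embryonic neural stem and progenitor cells, so the mutation preceded the OPC stage. Controls were littermates without induced K27M. Each region had 3 control libraries, and there were 3 K27M libraries from brainstem and 4 from telencephalon, numbered by culture (41, 51, 59 or 61).

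The ribosome reads messenger RNA on its small subunit and joins amino acids on its large subunit, and nearly every ribosomal protein is present in a single copy per particle. Mammals encode most of them in one intron-containing gene each, scattered over the chromosomes, alongside many processed pseudogenes. Their promoters are compact, commonly lack a TATA box and start transcription within a run of pyrimidines, which gives the messenger RNAs the terminal oligopyrimidine tract that links their translation to growth signals.

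The peak lists held between 16879 and 52466 peaks and no read counts, so sequencing depth is unknown, and a missing peak means that none was called at the depth of that library. The shortest list came from control telencephalon culture 59. Of 5 OPC markers, 4 to 5 had a promoter peak in each library (Pdgfra, Olig1, Olig2 and Sox10 in all 13, Cspg4 in 3). Of 5 markers each, microglia had 0 to 3 per library and endothelium 0 to 2. Cx3cr1, Csf1r, Tek and Cdh5 had a peak in none, and Aif1, Tmem119, Cldn5 and Pecam1 in 1 to 4 libraries. P2ry12 (microglia) had one in 12 libraries and Flt1 (endothelium) in 11. Astrocytes had 2 to 5 markers per library and neurons 3 to 5, with Gfap, Gja1, Tubb3, Snap25 and Syt1 in all 13. The mean number per group ranged from 3.67 to 4.00 for astrocytes and from 3.67 to 4.25 for neurons, and its part in the results below was not tested. The promoter of H3f3a, the mutated gene, had a peak in all 13 libraries, which carries no allele information. In bulk chromatin a lower fold cannot tell fewer cells with an open promoter from a less open promoter in each cell.

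Promoter sequences were available for 60 of the 80 genes in the RefSeq table for GRCm38.p6, the assembly of mm10. They run from 250 bases before to 50 bases after the start, and 1 start per gene was used. Their median GC content was 57.0% against 52.7% over the 26965 other genes of the table, non-coding genes included, and they held a median of 21 CpG dinucleotides against 7. The ETS-family core CCGGAA was present in 30 of 60 promoters on either strand (50%, against 15.2% of all 27025). The Sp/KLF core GGGCGG was present in 35 (58.3% against 35.9%). A pyrimidine start, here a C followed by at least 4 bases that are C or T and beginning within 10 bases of the annotated start on the sense strand, was also present in 35 (58.3% against 30.8%). AAGATGG (YY1) was found in 8 promoters (13.3% against 6.48%) and GCGCATG (NRF1) in 7 (11.7% against 4.04%). CCAAT (NF-Y) was found in 19 (31.7% against 37.9%) and the E-box CACGTG in 5 (8.33% against 7.24%). TATAAA at 20 to 40 bases before the start on the sense strand was found in 0 of 60, against 2.22% of all. These are counts of exact letters in a fixed window and were not tested.

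The stretches below run from 100 bases before to 20 bases after the start, 5′ to 3′ on the sense strand. Capitals mark exact matches to the 6 two-strand cores, to TATAAA in its window, or to the pyrimidine start, and adjoining matches run together. Rps27l and Rpl37 are shown because their promoter peaks ranked among the highest of the set. Rps29 ranked with them and Rpl23a among the lowest, and Rpl7 was the steadiest, but these 3 are named only.
Rps27l (chr9:66945986-66946105, plus strand): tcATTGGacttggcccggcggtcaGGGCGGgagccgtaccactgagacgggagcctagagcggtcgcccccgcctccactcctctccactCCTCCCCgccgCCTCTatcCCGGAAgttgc
Rpl37 (chr15:5116513-5116632, plus strand): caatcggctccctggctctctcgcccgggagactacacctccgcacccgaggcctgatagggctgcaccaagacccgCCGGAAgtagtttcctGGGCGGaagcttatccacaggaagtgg
Rps15 and Rpl35 are shown because their peaks ranked lowest among the promoters called in every library.
Rps15 (chr10:80292331-80292450, plus strand): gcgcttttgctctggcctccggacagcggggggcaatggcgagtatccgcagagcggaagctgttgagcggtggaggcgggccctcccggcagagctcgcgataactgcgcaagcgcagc
Rpl35 (chr2:39005112-39005231, minus strand): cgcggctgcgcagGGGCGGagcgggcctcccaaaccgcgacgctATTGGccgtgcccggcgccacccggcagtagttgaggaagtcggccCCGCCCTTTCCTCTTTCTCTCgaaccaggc
Rpsa, Rpl28 and Rps16 are shown because their fold varied most between libraries.
Rpsa (chr9:120127666-120127785, plus strand): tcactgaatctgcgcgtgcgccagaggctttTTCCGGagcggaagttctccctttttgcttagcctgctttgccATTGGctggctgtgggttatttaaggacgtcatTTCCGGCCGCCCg
Rpl28 (chr7:4792865-4792984, plus strand): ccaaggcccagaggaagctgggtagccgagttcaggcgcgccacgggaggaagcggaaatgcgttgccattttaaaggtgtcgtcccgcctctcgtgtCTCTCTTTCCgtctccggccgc
Rps16 (chr7:28350589-28350708, plus strand): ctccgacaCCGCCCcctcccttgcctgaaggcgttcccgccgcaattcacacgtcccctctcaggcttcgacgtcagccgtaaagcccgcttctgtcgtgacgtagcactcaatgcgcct
Rps25 is shown because no peak covered its start in any library, and Rpl10l and Rpl39l because their promoters had no peak at all. These 3 and Rpl37 were chosen for printing after their values were seen.
Rps25 (chr9:44407614-44407733, plus strand): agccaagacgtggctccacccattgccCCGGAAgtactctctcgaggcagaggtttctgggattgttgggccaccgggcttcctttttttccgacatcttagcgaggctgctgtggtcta
Rpl10l (chr12:66284382-66284501, minus strand): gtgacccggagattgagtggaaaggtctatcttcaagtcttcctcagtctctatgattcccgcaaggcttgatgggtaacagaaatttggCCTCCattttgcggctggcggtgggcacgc
Rpl39l (chr16:10170128-10170247, plus strand): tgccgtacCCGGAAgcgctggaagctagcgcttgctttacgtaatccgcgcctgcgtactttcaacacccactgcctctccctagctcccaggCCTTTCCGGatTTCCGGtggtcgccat
The strongest promoter peak covered the printed start of Rps27l, Rpl37, Rps15, Rpsa, Rpl28 and Rps16 in 13 of 13 libraries, and that of Rpl35 in 10. Counting any peak, an annotated start of Rpl35 was covered in all 13. CCGGAA occurred in the printed stretches of the high-ranking Rps27l and Rpl37 and not in those of the low-ranking Rps15 and Rpl35. It also occurred in Rps25 and Rpl39l, where no peak covered the start. Neither was called in all libraries, so neither has a rank. Over the genes called in all libraries, the median of the mean percentiles was 63.1 for the 23 with CCGGAA and 55.2 for the 25 without it, and 61.6 for the 28 with a pyrimidine start and 63.0 for the 20 without one.

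Most ribosomal protein promoters had a called peak in the cultures of both regions and both genotypes. A promoter peak was called in all 13 libraries for 62 of the 80 genes (77.5%), against 42.0% of all protein-coding genes. There were 15 genes called in some libraries and 3 called in none. The 60S genes were called throughout for 38 of 49 and the 40S genes for 24 of 31. Per library, between 62 and 77 of the 80 promoters were called, with a median of 76, while the share of all coding promoters ranged from 44.4% to 64.0%. Control brainstem libraries had 75.3 ± 1.2 called promoters (SD, n = 3), K27M brainstem 76.0 ± 1.0 (n = 3), control telencephalon 71.7 ± 8.4 (n = 3) and K27M telencephalon 76.3 ± 1.0 (n = 4). The wide spread in control telencephalon came from culture 59, with 62 against 76 and 77 in cultures 51 and 61.

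**Figure D1:**
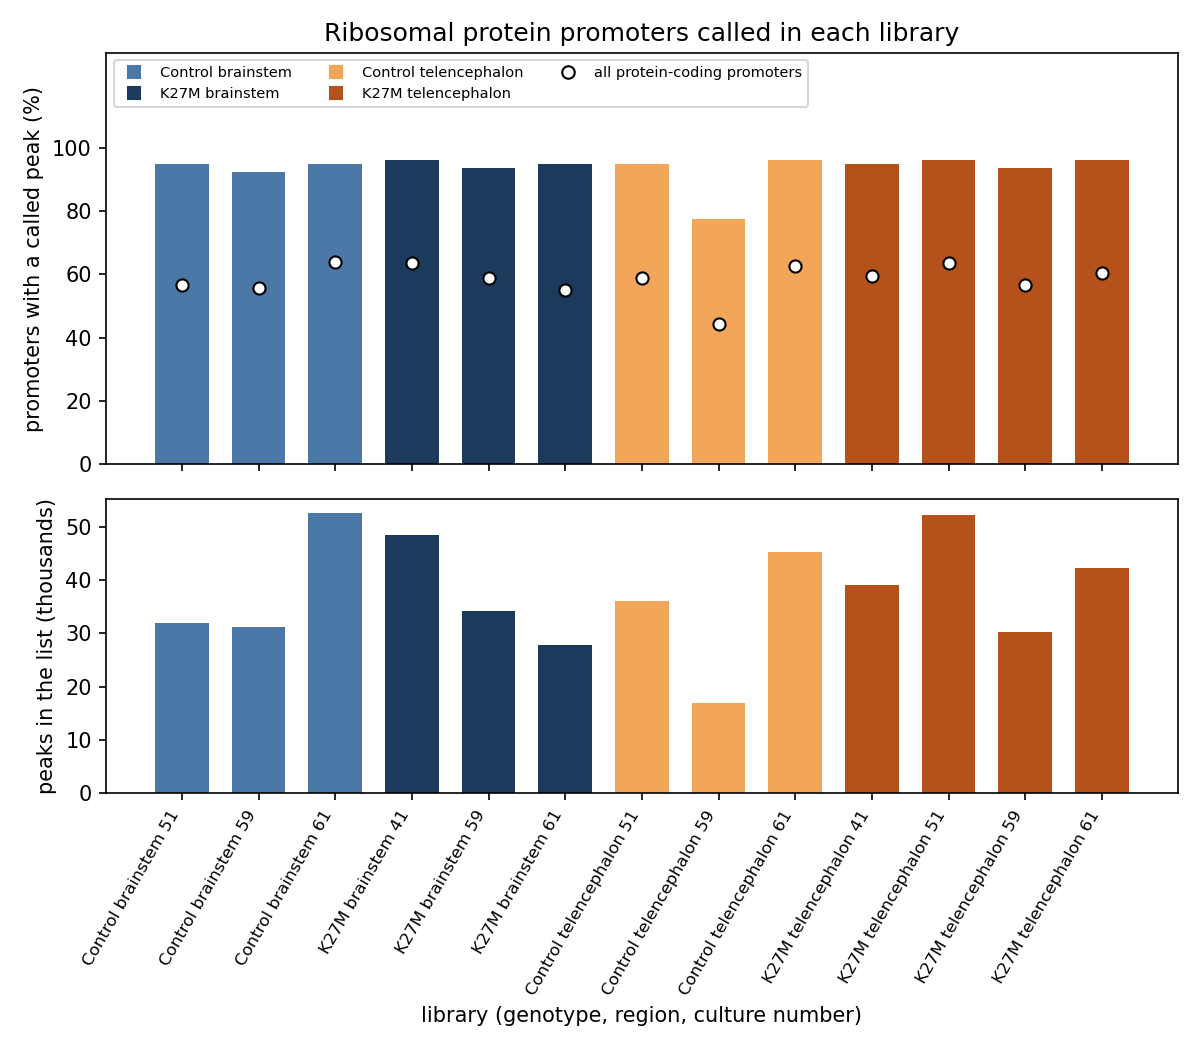
Share of the 80 ribosomal protein promoters with a called peak in each library (bars, %, upper panel) with the share of all protein-coding promoters (open circles), and the number of peaks in each list (lower panel). The ribosomal bar is above the circle in all 13 libraries, and both are lowest in control telencephalon 59, at 77.5% and 44.4%.

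All 15 genes called in only some libraries lacked a peak in control telencephalon 59, and without that library 73 of 80 were called in each of the other 12. When every list was reduced to its 16879 most significant peaks, 41 genes were called throughout (51.3%, against 30.3% of all coding genes). Each library then had between 56 and 68 of the 80, and between 42.3% and 45.5% of all coding promoters. At a p-value of at most 1e-10 for the peak, 3 genes remained called in all 13 libraries, Rps29, Rpl7 and Rpl15. This was 3.75% of the set, close to the 3.46% of all coding genes, and 11 genes were called in none. The count of genes called throughout therefore moved with the length and strictness of the lists. In 98.0% of the 974 calls the strongest peak covered an annotated start, compared with 88.7% at other coding promoters.

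Among the 15, 11 genes were missing only in control telencephalon 59. They included the 60S genes Rpl9, Rpl13, Rpl17, Rpl19, Rpl26, Rpl29 and Rpl36 and the 40S genes Rps2 and Rps27. Their mean percentile in the libraries that called them ranged from 4.12 (Rpl13) to 69.1 (Rpl9), so the group held both the weakest and some above-average peaks. Rps10, a 40S protein that is ubiquitylated when ribosomes collide, was also missing in K27M brainstem 61. Rpl8, which lies near the peptidyl transferase centre, was missing in control telencephalon, control brainstem and K27M brainstem 59. Rps4x, the X-linked 40S gene, was missing in control brainstem, control telencephalon and K27M telencephalon 59. Thus the absences of Rpl8 and Rps4x fell in libraries of culture 59, whose 4 lists held 31153, 34168, 16879 and 30248 peaks.

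Rps25, a 40S protein used by viral internal ribosome entry sites, stood apart from the rest of the small subunit (chromosome 9, 44407139 to 44410427). A promoter peak was called in 5 libraries, with a fold of 2.42 in K27M brainstem 41, 2.52 in K27M brainstem 61, 2.33 in control telencephalon 61, 2.32 in K27M telencephalon 51 and 2.59 in K27M telencephalon 61. In all 5 the peak lay up to 824 bp from the nearest annotated start of Rps25, covered none, and also fell in the promoter of the neighbouring Trappc4, which encodes a vesicle-tethering subunit. The calls came from 2 of 6 brainstem and 3 of 7 telencephalon libraries (two-sided Fisher's exact test p = 1, adjusted p = 1 over 962 coding genes called in 5 to 8 libraries). They came from 4 of 7 K27M and 1 of 6 control libraries (two-sided Fisher's exact p = 0.266, adjusted p = 1). Rps25 was the only ribosomal gene open to this test. Of the 962 genes, 0.0% passed by region or by genotype, with 14 and 12 at an unadjusted p under 0.05. With 6 and 7 libraries the smallest p that this Fisher's exact test can give is 5.83e-04. The smallest adjusted p of any gene was 0.561 by region and 0.280 by genotype. A gene called in 5 libraries cannot reach the smallest possible p, so the test could not decide whether Rps25 differed.

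The 3 genes called in no library were Rpl3l (chromosome 17, 24727820 to 24736143), Rpl10l (chromosome 12, 66283379 to 66284401) and Rpl39l (chromosome 16, 10170226 to 10174911). Rpl3l is the paralog of Rpl3 used in striated muscle, and Rpl10l and Rpl39l are paralogs of Rpl10 and Rpl39 used in the testis. The parent promoters were called in all 13 libraries, with a mean fold of 4.02 ± 0.37 for Rpl10 (SD, n = 13), 3.22 ± 0.45 for Rpl39 and 3.22 ± 0.35 for Rpl3. Within each pair the broadly used gene thus had a called promoter and the tissue-restricted copy had none at these depths. Rps27l, a paralog of Rps27 that p53 induces, was by contrast called in all 13.

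For other housekeeping sets, promoters called in all 13 libraries made up 75.0% of 68 genes for translation initiation and elongation factors, 74.4% of 39 proteasome subunit genes and 59.0% of 78 mitochondrial ribosomal protein genes. These shares are descriptions and were not tested against each other.

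Where a ribosomal promoter was called, its peak was of moderate height. Over the 62 genes called in all libraries, the mean fold ran from 2.33 to 4.54 with a median of 3.25, against 3.57 over the 9149 other coding genes called throughout. The median of the mean percentiles was 63.2 against 75.8, and the median of the mean widths 1051 bp against 1146 bp. A mean percentile above 90 was reached by 8.06% of the ribosomal promoters and 18.7% of the others, and one under 50 by 29.0% and 15.4%. In every library the ribosomal median lay under the coding median, by 0.04 (control brainstem 59) to 0.20 (control telencephalon 61) on the log2 scale. In the lists as deposited, ribosomal promoters were thus more often called than coding promoters at large, but ranked lower among the promoters called throughout.

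**Figure D2:**
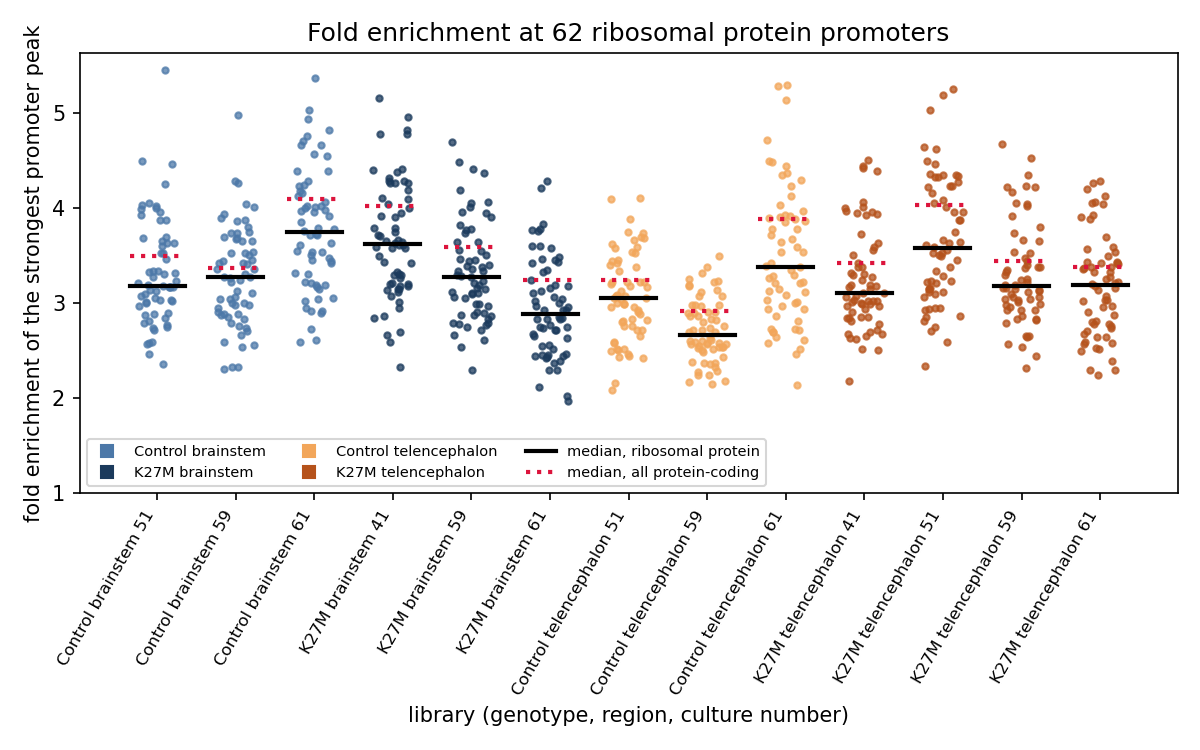
Fold enrichment of the strongest promoter peak for the 62 ribosomal protein genes called in all 13 libraries (points, coloured by group), with their median (black line) and the median of all coding promoters called throughout (dotted red line). The black line is under the red one in all 13 libraries, and the lowest pair, 2.67 and 2.91, is in control telencephalon 59.

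The level of the set varied between libraries more than between groups. The median fold over the 62 genes was 3.40 ± 0.30 in control brainstem (SD, n = 3), 3.26 ± 0.37 in K27M brainstem (n = 3), 3.03 ± 0.36 in control telencephalon (n = 3) and 3.26 ± 0.21 in K27M telencephalon (n = 4). The ranges of the 4 groups overlapped, from 3.18 to 3.74, 2.89 to 3.62, 2.67 to 3.38 and 3.11 to 3.58 in the same order. The median percentile was 68.2 ± 6.3, 64.0 ± 12.2, 55.5 ± 23.0 and 68.6 ± 5.1 in that order. The value for control telencephalon again rested on culture 59, with 29.1 against 71.5 and 66.0. In lists of equal length the medians over the called genes were 33.1 ± 5.4, 31.3 ± 2.6, 32.1 ± 7.1 and 31.2 ± 2.0, and the groups overlapped there as well.

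The 40S and 60S genes had similar levels, with a median of the mean folds of 3.31 over 24 and 3.22 over 38 genes. The highest ranks included those of Rps29, Rps27l, Rpl37 and Rpl30. Rps29, a small zinc-binding 40S protein (chromosome 12, 69157722 to 69159186), had a fold of 4.47, 4.98 and 4.57 in control brainstem, 4.95, 4.48 and 4.21 in K27M brainstem, 4.11, 3.49 and 5.28 in control telencephalon and 4.42, 5.04, 4.53 and 4.28 in K27M telencephalon. Its percentile stayed between 90.1 and 99.5, high in every list. Rps27l had the highest mean fold of the set, 4.54 ± 0.61 (SD, n = 13), with its lowest value of 3.14 in control telencephalon 59 and its highest of 5.46 in control brainstem 51. Rpl30 of the large subunit reached 4.19 ± 0.62 and Rpl37, a zinc-binding 60S protein, 4.11 ± 0.51. The mean percentiles of these 4 ran from 90.6 to 96.3.

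The lowest ranks among the genes called throughout belonged to Rps15, Rpl35, Rpl23a, Rps18 and Rpl12. Rps15, in the head of the small subunit (chromosome 10, 80292453 to 80294114), had a fold of 2.36, 2.32 and 2.61 in control brainstem, 2.59, 2.29 and 1.97 in K27M brainstem, 2.16, 2.17 and 2.14 in control telencephalon and 2.18, 2.34, 2.57 and 2.53 in K27M telencephalon. Every one of these values was under every value of Rps29. Its mean percentile was 9.57, and in lists of equal length its peak was left in 4 of 13 libraries. Rpl35 and Rpl23a, which sit near the exit of the nascent peptide tunnel, had a mean fold of 2.52 ± 0.32 and 2.62 ± 0.24 (SD, n = 13). The mean of Rpl35 mixes peaks. In control telencephalon 61 and K27M telencephalon 41 and 51 its strongest peak lay 1835 to 1843 bp from the nearest start, with folds of 3.01, 2.64 and 3.15. Rps18 had 2.70 ± 0.17 and Rpl12, at the base of the stalk that recruits elongation factors, 2.71 ± 0.39. The strongest peak of Rps18 lay 591 to 815 bp from the nearest start in K27M brainstem 59 and 61 and control telencephalon 61. A peak was shared with another coding promoter at Rpl35 (Arpc5l), Rps18 (Vps52) and Rpl12 (Lrsam1).

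Such sharing was also found at other genes of the set, and its share over all coding genes was not counted. Of the 77 genes with a call, 18 had their strongest peak in the promoter window of another coding gene as well, in most of the libraries that called it, among them the read-through annotation RPS10-NUDT3 at Rps10. The 13 of these called in all libraries had a median of the mean percentiles of 42.8, and the 49 without sharing 63.9. A shared peak cannot be assigned to either gene from these lists. The widest peaks lay at Rpl41, Rpl7 and Rpl15 and were all shared, with Zc3h10, Rdh10 and Nkiras1. Rpl41, which encodes the smallest ribosomal protein, had a peak of 2306 ± 315 bp (SD, n = 13) at a mean percentile of 33.7, so its peak was broad and low. Rpl7 had 1912 ± 150 bp at a percentile of 83.4 and Rpl15 had 1576 ± 294 bp at 81.6. The narrowest lay at Rpl28 (597 ± 129 bp, percentile 46.7), Rps15 (663 ± 265 bp, 9.57) and Rpl18 (668 ± 173 bp, 42.8). The narrowest thus lay under the set's median percentile of 63.2 and Rpl7 and Rpl15 above it, while Rpl41 was wide but low. No correlation of width with rank was computed over the set.

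**Figure D3:**
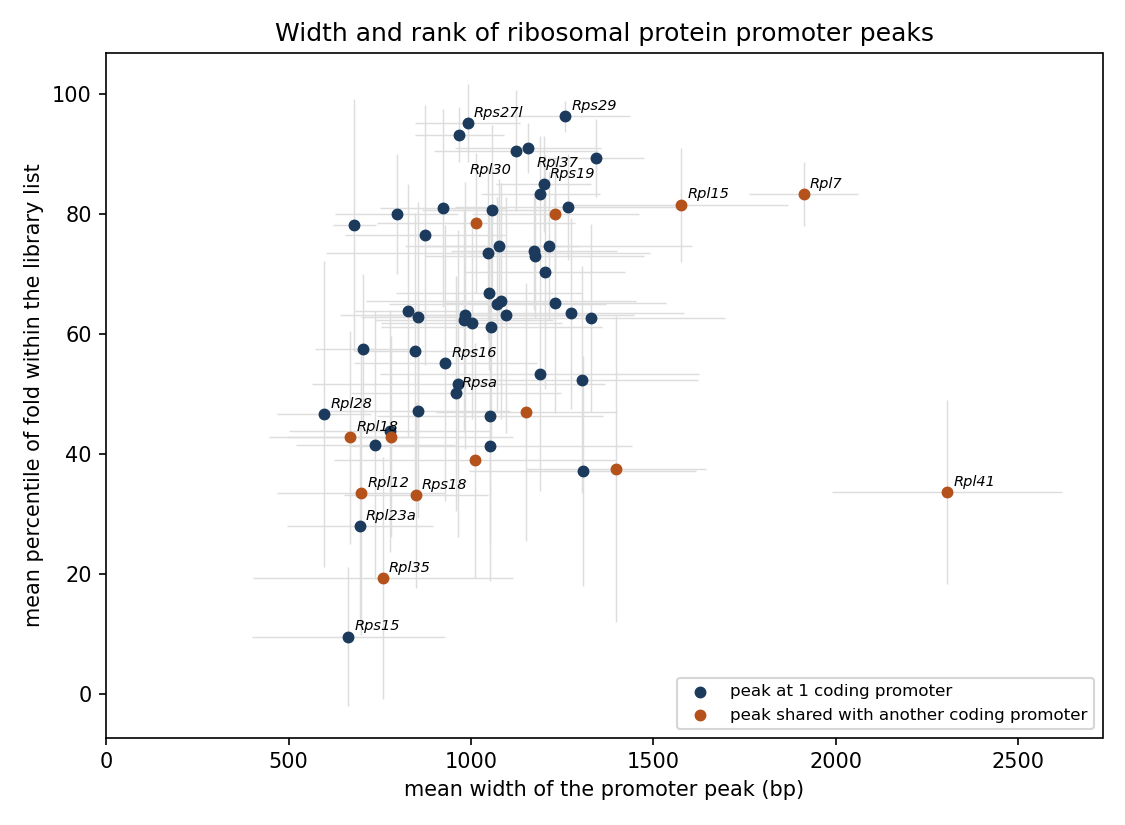
Mean width of the promoter peak (bp, horizontal) against the mean percentile of its fold within the library lists (vertical) for the 62 ribosomal protein genes called in all 13 libraries, with bars of 1 SD over the libraries and orange points where the peak is shared with another coding promoter. Rps15 lies lowest, at 663 bp and percentile 9.57, Rps29 highest, at percentile 96.3, and Rpl41 furthest to the right, at 2306 bp and percentile 33.7.

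The order of the promoters was kept from library to library. Over the 62 genes, Spearman's rho of fold between libraries had a median of 0.69 over 78 pairs of libraries (0.57 to 0.80), compared with 0.74 (0.64 to 0.84) over other coding genes called throughout. Genes are not independent replicates, and the libraries share the genome and the protocol, so these values are descriptions. After the median of all coding genes called throughout was taken from each library on the log2 scale, the SD of a ribosomal promoter between libraries had a median of 0.13, and that of the other coding promoters 0.12. The ribosomal set was thus no steadier than other promoters called in every library, and 25 of 62 genes had an SD under the median of the others.

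Single genes differed widely in steadiness. Rpl7 was the steadiest, with an SD of 0.06 (chromosome 1, 16101295 to 16104662), and only 0.315% of coding promoters called throughout had an SD at or under its own. Its fold was 3.63, 3.69 and 4.18 in control brainstem, 4.04, 3.64 and 3.33 in K27M brainstem, 3.58, 3.18 and 4.23 in control telencephalon and 3.73, 4.50, 3.48 and 3.44 in K27M telencephalon. These values moved with the level of the whole library and little beyond it. Rpl18 and Rps19 followed, each with an SD of 0.08. Rps19 is the small-subunit gene most often mutated in Diamond-Blackfan anaemia. The largest SDs were those of Rpsa (0.21), Rpl28 (0.19) and Rps16 (0.18). Rpsa, a 40S protein also described as a laminin receptor, had a fold of 2.77, 3.80 and 3.06 in control brainstem, 2.69, 2.75 and 2.83 in K27M brainstem, 2.42, 2.87 and 3.21 in control telencephalon and 2.66, 3.12, 3.19 and 3.36 in K27M telencephalon. Its high and low libraries did not follow region or genotype.

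**Figure D4:**
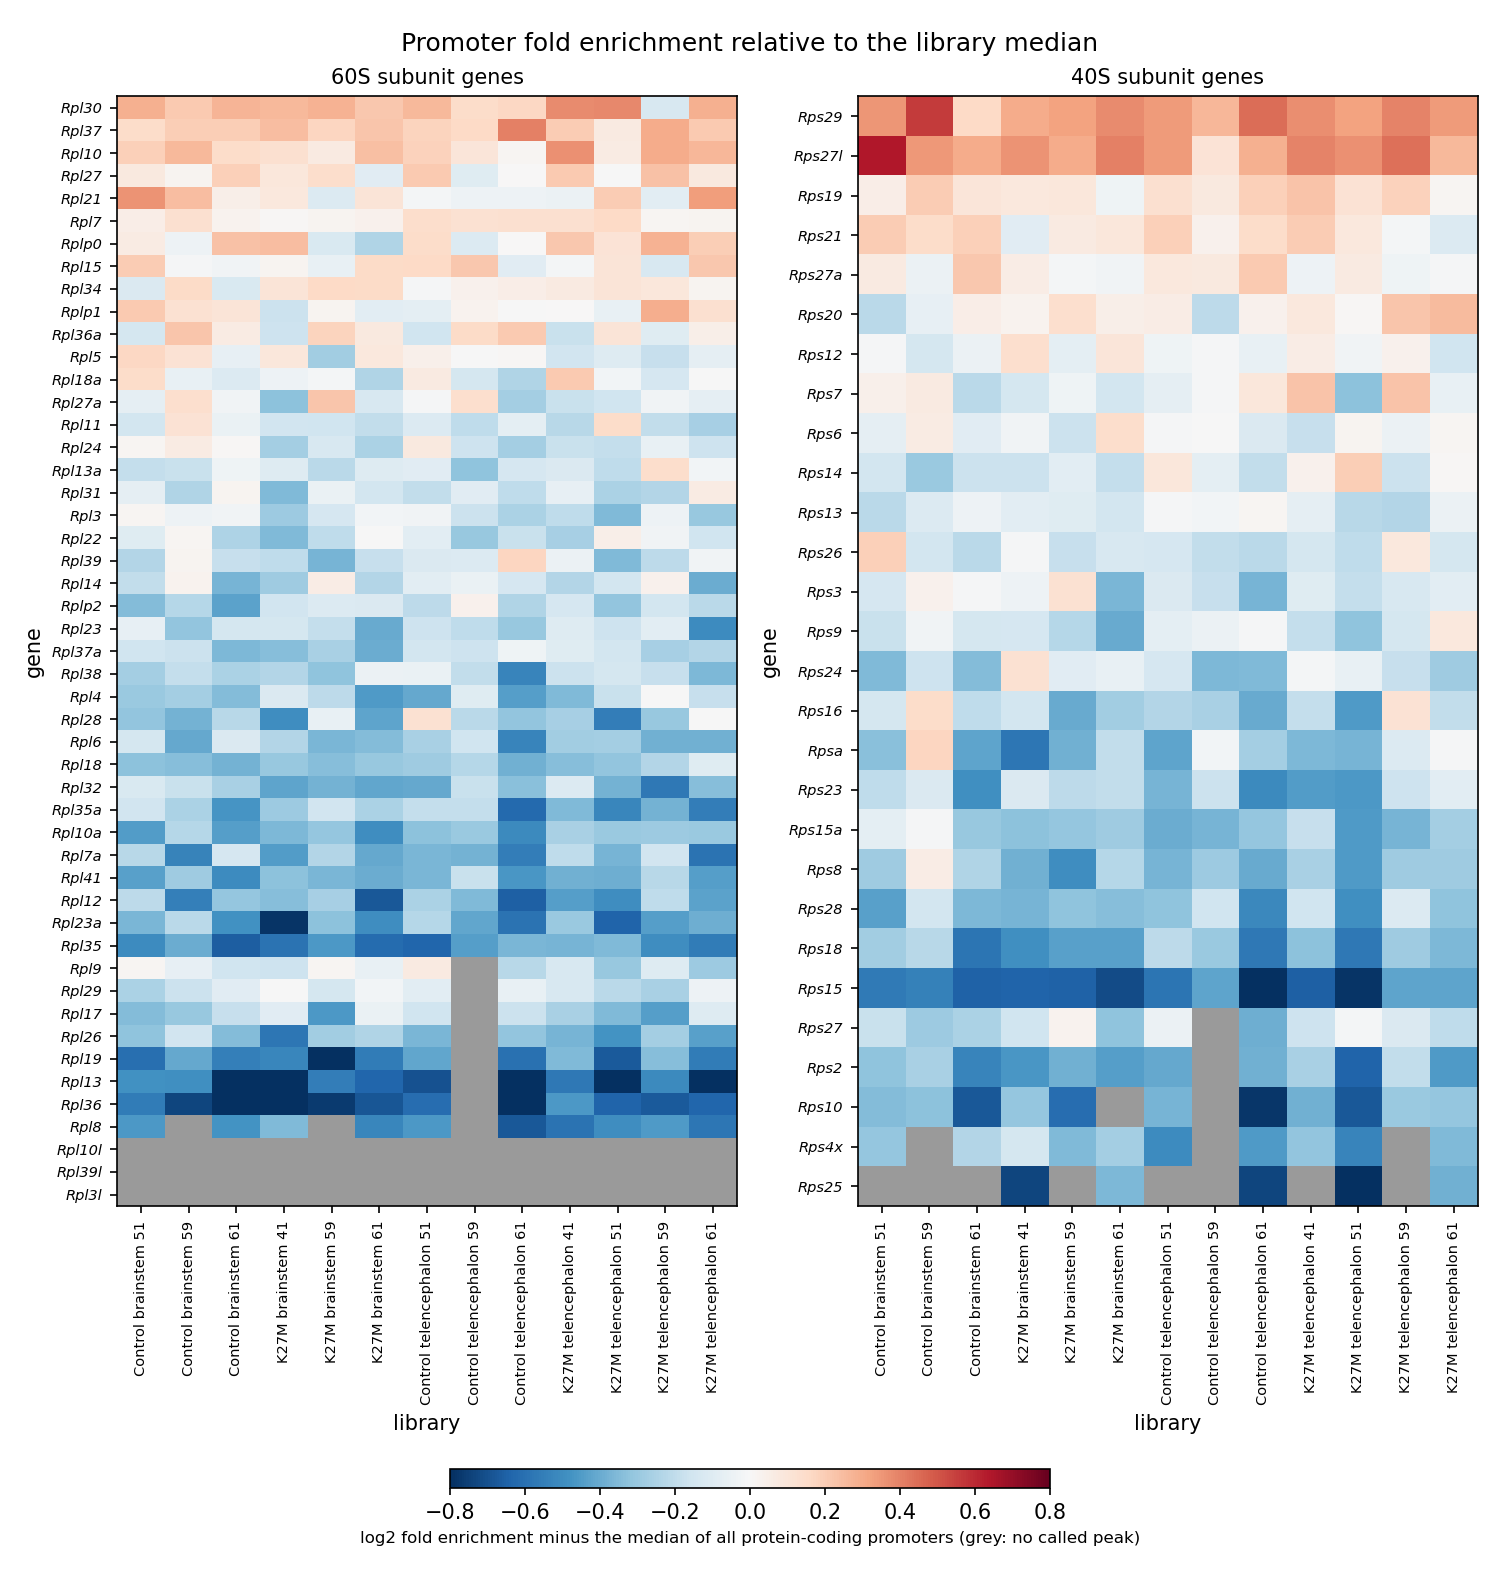
Log2 fold enrichment of ribosomal protein promoters minus the median of all coding promoters called throughout, for 60S genes (left) and 40S genes (right) in the 13 libraries; grey cells have no called peak, and the colour scale ends at ±0.8. The highest and lowest rows keep their colour across nearly all libraries, most rows are blue (under the coding median), and the grey cells gather in control telencephalon 59, in the 3 tissue-restricted paralogs and in Rps25.

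The comparison of regions asked whether promoter opening at ribosomal genes differed between OPCs of the brainstem and the telencephalon. None of the 62 promoters passed (limma, culture number as a block, Benjamini-Hochberg adjustment over 9211 coding genes). Over all 9211, 0.0109% passed, which was Irx5, a regional homeobox gene outside the set. At an unadjusted p under 0.05 there was 1 ribosomal promoter of 62, against 5.07% of all genes. The differences, brainstem minus telencephalon in centred log2 fold, ran from -0.13 to 0.14 with a median of -0.01, equal to that of all genes. There were 29 above and 33 under zero, and without centring 54 above and 8 under, with a median of 0.07 for the set and for all genes. Every one of the 62 intervals (95%) lay within -0.28 to 0.29, so differences of 0.5 or more were outside all of them. The same held for 9209 of all 9211 genes.

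The smallest unadjusted p-values by region belonged to Rpl35a, Rps14 and Rpl37a. Rpl35a, a 60S gene, had a fold of 3.14, 2.84 and 2.95 in control brainstem and 3.29, 3.23 and 2.72 in K27M brainstem. In telencephalon it had 2.83, 2.55 and 2.52 in control and 2.67, 2.81, 2.66 and 2.30 in K27M cultures. The brainstem values were mostly higher but overlapped those of the telencephalon, and the centred difference was 0.14 ± 0.07 (SE, limma adjusted p = 0.957). Rps14, a 40S gene, differed by -0.13 ± 0.07 and Rpl37a, a 60S gene, by -0.13 ± 0.07, with the same adjusted p of 0.957. The value of Rps14 in K27M brainstem 61 came from a peak 1529 bp from the nearest start.

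**Figure D5:**
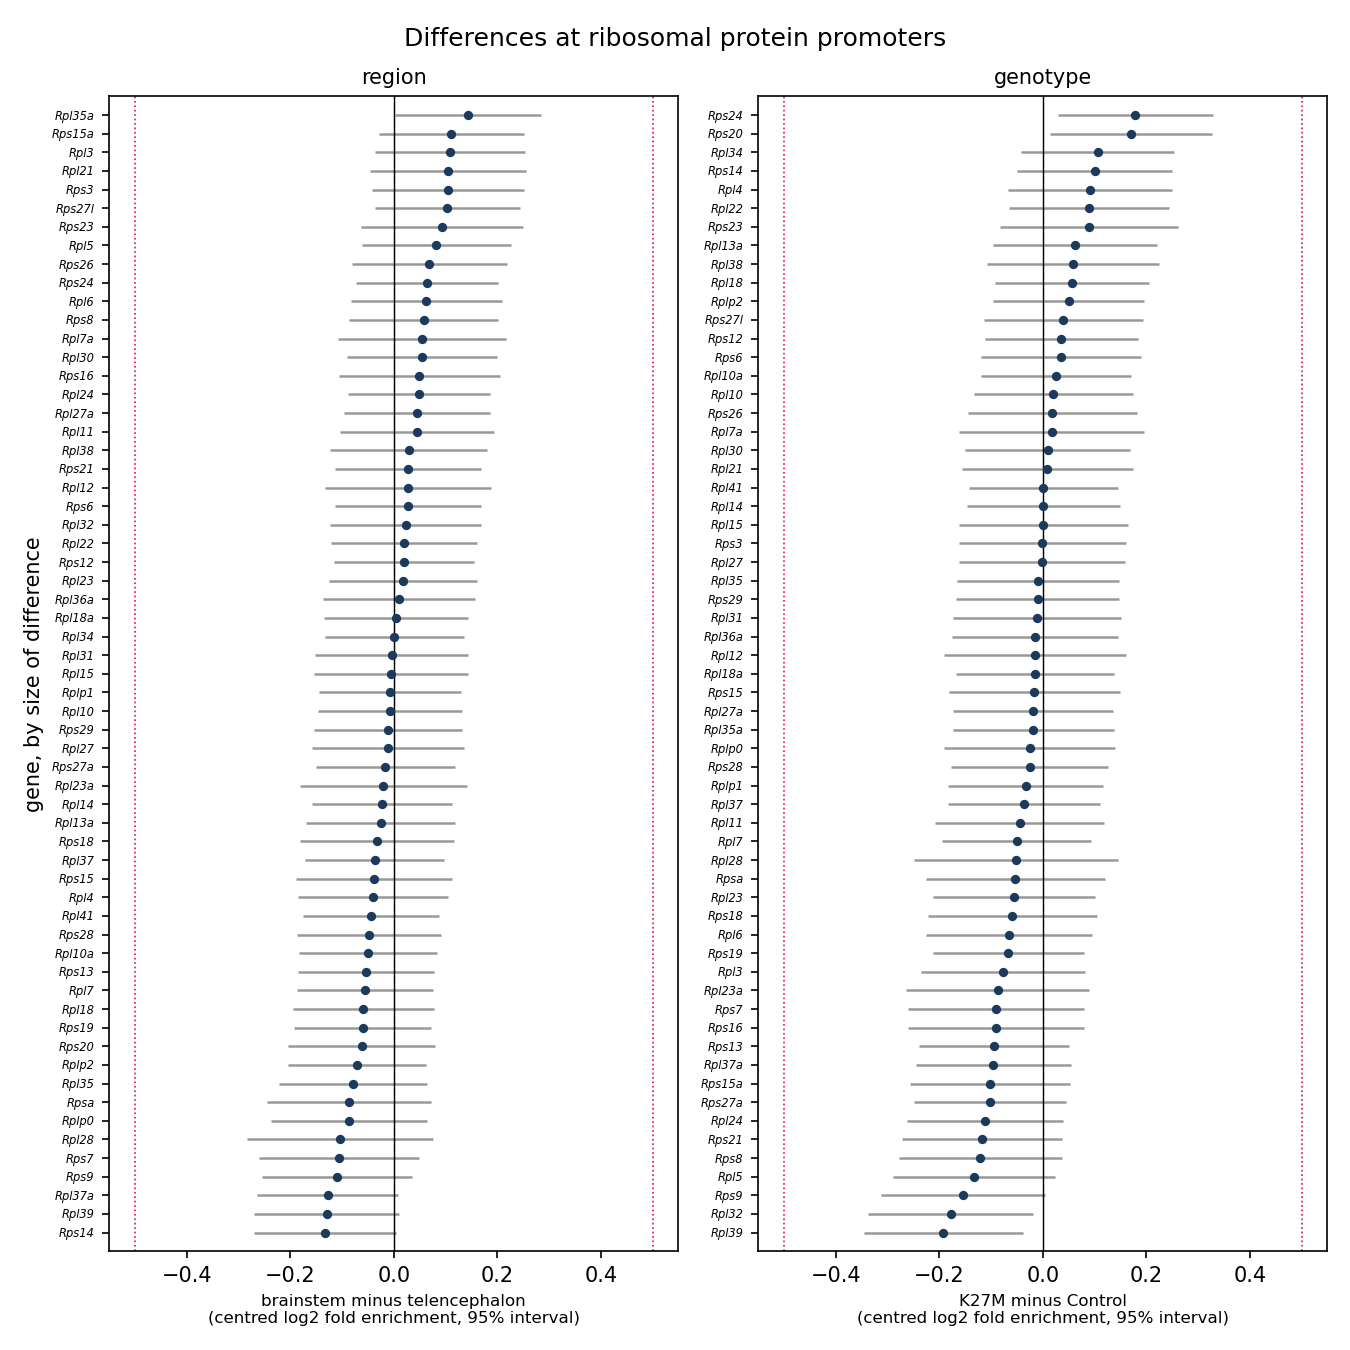
Difference in centred log2 fold enrichment at ribosomal protein promoters called throughout, brainstem minus telencephalon (left) and K27M minus control (right), each point with its 95% interval from limma and dotted lines at ±0.5. All intervals lie between the dotted lines, from -0.28 to 0.29 by region and from -0.35 to 0.33 by genotype.

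The comparison of genotypes asked whether H3.3 K27M altered these promoters. Again none of the 62 passed, and 0.0% of the 9211 genes did. At an unadjusted p under 0.05 there were 4 ribosomal promoters, 6.45% of the 62 against 4.28% of all genes. The differences, K27M minus control, ran from -0.19 to 0.18, with 23 genes above and 39 under zero and a median of -0.02. Over all genes, 4615 of 9211 were above zero and the median was 0.00. Without centring the balance of the set turned, to 36 above and 26 under zero with a median of 0.01, where the median of all genes was 0.03. All 62 intervals (95%) lay within -0.35 to 0.33. In both comparisons the intervals thus stayed within ±0.5 for differences relative to the library median and averaged over the other factor. So did those of 9209 of all 9211 genes by region and 9210 by genotype, so this does not set the ribosomal promoters apart. Centring removes a shift shared by all promoters. These intervals also set no bound on a change confined to a single region or genotype.

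Rpl39, a protein of the peptide exit tunnel, had the smallest p by genotype. Its fold was 2.97, 3.42 and 3.61 in control and 3.49, 2.78 and 2.85 in K27M brainstem cultures. In telencephalon it was 2.99, 2.69 and 4.37 in control and 3.30, 3.15, 2.98 and 3.32 in K27M cultures. The genotypes overlapped in both regions, and the centred difference was -0.19 ± 0.08 (SE, limma adjusted p = 1.00). Rps24, a 40S gene also mutated in Diamond-Blackfan anaemia, had a fold of 2.74, 3.00 and 3.22 in control and 4.38, 3.38 and 3.11 in K27M brainstem. In telencephalon it had 2.95, 2.27 and 3.03 in control and 3.38, 3.87, 3.04 and 2.78 in K27M cultures. The K27M values reached higher, with overlap, and the difference was 0.18 ± 0.07 (adjusted p = 1.00 by limma). The highest value, 4.38, came from K27M brainstem 41, and no control library carried that culture number. The third, the 60S gene Rpl32, differed by -0.18 ± 0.08 with the same adjusted p.

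The difference of the genotype effect between regions was tested last. None of the 62 promoters passed, and 0.0% of all genes did, with 3 ribosomal promoters (4.84%) at an unadjusted p under 0.05 against 3.71% of all genes. The effect of K27M in brainstem minus that in telencephalon was under zero for 43 of 62 ribosomal promoters and for 4447 of 9211 genes, with medians of -0.07 and 0.01. Without centring of the libraries the median of all genes shifted to -0.10 and that of the set to -0.18, with 55 of 62 under zero. Of the 62 intervals, 54 lay within ±0.5 (87.1%, against 87.7% of all genes), and they extended from -0.67 to 0.52. This comparison is thus the least precise.

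Both stalk proteins Rplp0 and Rplp1, which help to recruit elongation factors, were among the 3 genes with the smallest p for this difference, with Rps16. Rplp1 had a fold of 4.05, 3.67 and 4.39 in control and 3.58, 3.64 and 3.06 in K27M brainstem, so that every control value was above every K27M value. In telencephalon it had 3.07, 2.97 and 3.87 in control and 3.42, 3.87, 4.22 and 3.69 in K27M cultures, which overlapped. The difference of effects was -0.34 ± 0.13 (SE, limma adjusted p = 1.00). For Rps16 it was -0.36 ± 0.15 and for Rplp0 -0.32 ± 0.15, with the same adjusted p. Rplp2, the partner of Rplp1 in the stalk, was looked up after these values were seen and had 0.25 ± 0.13, the opposite sign, also with an adjusted p of 1.00 by limma.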

How the data were processed

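Per the labels and the study's methods, reads from snap-frozen OPC pellets (Omni-ATAC) were aligned to mm10 with BWA 0.7.17-r1188 in an nf-core pipeline, reads in blacklisted regions were removed, and MACS2 2.2.7.1 called broad peaks in each library separately. A broad-peak cutoff is stated for the study's ChIP-seq, with the same version of MACS2, but not for these ATAC-seq calls. The lowest deposited −log10 q was 1.00, which matches the stated cutoff. Each peak in the deposited lists has a fold enrichment (a ratio over local background), the −log10 of the p-value and q-value, and a score that served here only as a check of the format. The authors did not scale these values between libraries.

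Promoters and the set of genes followed GENCODE M21, with an overlap of at least 1 bp. The members and all lists were chosen with earlier results of these data known. Log2 folds of the 9211 coding genes with a promoter peak in all 13 libraries were centred on the library median and fitted with limma 3.58.1 in R 4.3.3, with group and culture number as terms, since the study accounted for matched cultures. Adjusted p-values are Benjamini-Hochberg over all genes fitted, with a threshold of 0.05. Detection was compared with two-sided Fisher's exact tests in Python 3.11.15 (scipy 1.17.1) over genes called in 5 to 8 libraries. In simulated data for 9211 genes, 100 were changed by 0.5 and 100 by 1 (log2). The fit recovered 99.0% of the changes of 0.5 by region and 94.0% by genotype, with 12 and 11 false calls. The simulated noise was independent between genes and libraries, with no culture effect or outlying library, so recovery in these data may be lower.

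The labels do not say what a shared culture number stands for. After group means were removed, the 16 pairs of libraries with the same number correlated by -0.10 to 0.28 (median 0.08), and 6 of them by more than 0.1. The 47 pairs from different groups with different numbers correlated by -0.24 to 0.33 (median -0.02), and 6 of them by more than 0.1. Values thus ran somewhat higher for a shared number, but the ranges overlapped. The block therefore follows the study's account. Culture 41 had K27M libraries only, so under the block it holds no control to set them against. Where cultures of a group came from separate litters is not stated, and p-values then measure the spread between these libraries.

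Named genes were those not called in all libraries, the 5 highest and 5 lowest by mean percentile, the 3 with the smallest p in each comparison, and the 3 with the largest and smallest SD and width. Some genes that the rule names are not reported here, though counts include them. The alternatives were lists of equal length (16879 peaks), a p-value of at most 1e-10, a window of 500 bp to either side, peaks covering a start, the nearest peak, genes called in at least 10 libraries, no centring, cyclic loess, percentiles, no culture block, and leaving out each library. Intervals are 95% intervals from the fit, and no counting interval can be given without read counts.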

Additional observations from a re-analysis of the deposited data

Results flagged for a closer look

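Of 66 sets of 4 to 10 libraries examined, 8 held a library far from its neighbours. Chance alone marks about 1 in 20 independent sets, but these overlap, and Rpl28 and Rps16 were named for their spread between libraries, so the 8 cannot be read against that rate. Control telencephalon 59, the library with the shortest list, gave 4 of them, from the same library counted in both the telencephalon and the control sets. It had 62 called ribosomal protein promoters, against 75 to 77 in the other telencephalon libraries and 74 to 77 in the other control libraries. The median percentile of the called promoters was 29.1 there, against 59.7 to 70.9 in the other telencephalon libraries and 57.9 to 70.8 in the other controls. The median width of the called promoter peaks was 795 bp in K27M telencephalon 59, against 1112 to 1146 bp in the other K27M telencephalon libraries. The gap between the ribosomal and the coding median was -0.041 on the log2 scale in control brainstem 59, against -0.168 to -0.129 in the other brainstem libraries. Within K27M telencephalon, Rpl28 had a fold of 3.38 in culture 61 against 2.75 to 2.84 in the others and Rps16 had 3.73 in culture 59 against 2.94 to 2.99. What sets these libraries apart was not tested.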

How the results depend on the processing

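No ribosomal protein promoter passed limma by region, by genotype or in their difference under any alternative run, with or without the replicate block. At a p-value of at most 1e-10 only 3 were fitted. Detection was tested by region and genotype only, with Fisher's exact test, or with permutation within culture number for the block. None passed, but labels can be permuted within culture number in few ways, which limits how small that p can be. Fisher's exact test has a floor as well, given above, so neither outcome shows that detection was alike. In lists of equal length 11 ribosomal genes were open to testing, 14 at 1e-10 and at most 1 (Rps25) otherwise. The differences of Rpl35a, Rps14, Rpl37a, Rpl39, Rps24, Rpl32, Rplp1, Rps16 and Rplp0 kept their sign under the alternatives that gave them a value, and that of Rplp2 was not recomputed. Without centring, the balance of the set turned from more genes under to more above zero, from 29 to 54 of 62 above by region and from 23 to 36 by genotype. The other counts moved with the lists. The 62 promoters called in all libraries (77.5%, against 42.0% of all coding genes) became 41 in lists of equal length (51.3% against 30.3%) and 3 at a p-value of at most 1e-10 (3.75% against 3.46%), and 62 to 73 with 1 library left out, where 73 was without control telencephalon 59. Promoters called in no library numbered 11 at 1e-10 and 3 with any library left out. The mean over libraries of the median percentile of called promoters, 60.5, was 31.9 in lists of equal length, since fewer and stronger peaks then form the scale. By region, 1 coding gene passed limma, and 2 did without the replicate block and with cyclic loess, 0 without centring, with percentiles, with a 500 bp window and at 1e-10, and 1 to 4 with 1 library left out, where 4 was without either library of culture 41. By genotype 0 coding genes passed, and 0 to 1 with 1 library left out, where 1 was without K27M brainstem 61. Depth is unknown, so a missing peak sets no limit on how open a promoter was.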

Other observations

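Pseudogenes named after ribosomal protein genes were seldom called. Of 294 annotated pseudogenes of any type with such names, 256 (87.1%) had no promoter peak in any library, against 30.6% of protein-coding genes. A peak was called in some libraries for 35 and in all 13 for 3. A peak covered the annotated start in all 13 libraries for 1 of them, Rpl29-ps2, with a mean fold of 4.68. For the other two called throughout, the start was covered in 3 libraries (Rpl21-ps7, mean fold 4.24) and in 0 (Rps18-ps2, mean fold 3.25).

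Ribosomal genes outside the name rule were called much as those within it. Promoter peaks were found in all 13 libraries for Rps3a1 (fold 3.14 ± 0.40, SD, n = 13), for Fau, which encodes a ribosomal protein fused to a ubiquitin-like protein (2.46 ± 0.25), for Rpl36al (4.11 ± 0.30) and for Rpl22l1 (3.80 ± 0.44). Rpl7l1 was called in 12 libraries and Rps27rt in 0. The mean percentile of Fau was 17.1, while that of Rpl36al was 92.1.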
